A study of Mus musculus with 4 samples.

Results

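Of the 4376 genes to which the differential ATAC-Seq table assigned a peak, 165 (3.77%) were assigned 3 or more, and these genes together held 560 of the 5332 peaks of the table (10.5%). They were chosen by counting the rows of each gene identifier, and since every row was there because its accessibility differed between the genotypes, the genotype contrast itself chose the members. All values of that contrast below are therefore descriptions, and the limma calls are printed as descriptions too and support nothing. Most of these genes, 120, had exactly 3 peaks, 35 had 4, 7 had 5, and the other three had 6, 9 and 10. By biotype 141 were protein coding, 12 were long intergenic non-coding RNA genes and 12 were of another kind.

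ATAC-Seq, which reads out open chromatin through the cuts of a transposase, was performed on long-term hematopoietic stem cells (LT-HSCs) of C57BL/6 mice at homeostasis. There were 2 libraries of Sin3B+/+ cells and 2 of Sin3B-/- cells, and each library was a pool of LT-HSCs from 2 mice, sorted from bone marrow as lineage-negative, Sca-1+, cKit+, Flk2-, CD48- and CD150+. The Sin3B-/- mice carried floxed Sin3B alleles (Sin3B F/F) and the Vav1-iCre transgene, which deletes Sin3B in the hematopoietic system from embryonic life on. The sample labels call the controls WT, the study's text calls them Sin3B+/+, the name used here, and its figure legends also Sin3B F/F. Whether the controls carried Vav1-iCre is not given in the sources used here, nor are the ages of the mice. The table holds peaks and no expression values, so the sorted identity could not be checked against markers here. Only peaks with a call entered the table, and a gene can have further accessible sites that did not enter the count.

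Sin3B is a scaffold protein of a complex that carries histone deacetylases, enzymes that remove acetyl marks from histones and are associated with closed chromatin. A gene is usually served by a promoter at its start and by several enhancers, short accessible stretches in its introns or around it where transcription factors bind. Genes of blood stem cells such as Erg and Spi1 are known for having many such elements, and a peak is assigned to a gene by position alone, which does not show that the element acts on it. Distances from a start are to the nearest start of that gene among the GENCODE M21 basic transcripts, which can lie inside the gene as the table delimits it.

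The central 120 bases of some peaks are shown first because they carry the 2 patterns described below. Anks1b, Sdk2, Akap13 and Gse1 each had peaks that changed in opposite directions, and for each the lowest and the highest of its peaks outside annotated untranslated regions are given. Tacr1 was the only gene whose peaks were all lower in Sin3B-/-, and Vav1 and Erg had all peaks higher. Sequences are of the GRCm38 plus strand, 5′ to 3′. Capitals mark matches on either strand to ETS (CGGAAG), RUNX (TGTGGT), the GATA factor motif (AGATAA), AP-1 (TGANTCA), CTCF core (AGGGGGC), NRF1 (CGCATGC) or E2F (TTCCCGC), letters that do not overlap one another in these windows.
Anks1b peak 2, chr10:90431322-90431441: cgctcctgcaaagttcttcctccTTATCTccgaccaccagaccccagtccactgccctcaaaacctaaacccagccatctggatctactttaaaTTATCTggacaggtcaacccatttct
Anks1b peak 1, chr10:90210252-90210371: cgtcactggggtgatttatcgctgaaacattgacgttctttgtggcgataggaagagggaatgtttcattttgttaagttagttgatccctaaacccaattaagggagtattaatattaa
Sdk2 peak 2, chr11:113972622-113972741: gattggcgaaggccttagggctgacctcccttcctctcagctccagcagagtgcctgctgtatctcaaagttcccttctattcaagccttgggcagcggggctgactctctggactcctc
Sdk2 peak 1, chr11:113806087-113806206: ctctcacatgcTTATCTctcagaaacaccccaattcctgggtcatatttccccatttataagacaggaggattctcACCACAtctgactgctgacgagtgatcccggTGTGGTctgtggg
Akap13 peak 5, chr7:75755145-75755264: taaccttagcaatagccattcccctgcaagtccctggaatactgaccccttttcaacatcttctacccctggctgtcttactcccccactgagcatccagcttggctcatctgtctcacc
Akap13 peak 3, chr7:75656644-75656763: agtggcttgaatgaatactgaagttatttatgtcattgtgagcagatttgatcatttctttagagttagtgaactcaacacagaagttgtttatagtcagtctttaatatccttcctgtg
Gse1 peak 4, chr8:120382758-120382877: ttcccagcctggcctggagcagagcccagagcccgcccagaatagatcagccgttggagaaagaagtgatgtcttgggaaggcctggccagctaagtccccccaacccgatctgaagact
Gse1 peak 7, chr8:120535105-120535224: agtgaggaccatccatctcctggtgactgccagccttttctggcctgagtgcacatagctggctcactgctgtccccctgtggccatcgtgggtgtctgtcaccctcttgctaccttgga
Tacr1 peak 1, chr6:82402619-82402738: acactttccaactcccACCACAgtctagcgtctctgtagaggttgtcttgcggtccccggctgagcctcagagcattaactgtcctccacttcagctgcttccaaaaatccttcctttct
Vav1 peak 3, chr17:57290583-57290702: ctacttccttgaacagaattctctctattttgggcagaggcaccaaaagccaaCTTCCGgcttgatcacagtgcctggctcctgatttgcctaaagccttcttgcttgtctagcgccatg
Erg peak 3, chr16:95640859-95640978: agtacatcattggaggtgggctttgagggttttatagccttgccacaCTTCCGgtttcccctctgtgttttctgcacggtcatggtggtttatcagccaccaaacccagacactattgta

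The lower Anks1b peak held 2 GATA matches and the higher Sdk2 peak held matches to GATA and RUNX, while neither window of Akap13 or Gse1 held a match to any of the 7 motifs. The printed Vav1 and Erg windows each held an ETS match, as did the window of Vav1 peak 4. The windows of Vav1 peak 1 and of Erg peaks 1 and 2 held none. The printed Tacr1 window held a RUNX match, and those of Tacr1 peaks 2 and 3 held no match. Over all 5332 windows of this length, the ETS letters were found in 9.3%, RUNX in 13.8%, GATA in 8.66%, AP-1 in 4.69%, CTCF core in 5.2%, NRF1 in 1.05% and E2F in 1.56%, against 7.68%, 14.3%, 9.64%, 4.82%, 5.71%, 0.714% and 0.893% of the 560 member windows. Of the 19 lower member windows, 2 held GATA, 2 held RUNX, and 1 each held ETS, AP-1 and CTCF core. In windows of 300 bases ETS was found in 13.0% of member peaks and 19.3% of all peaks. A match shows only that these letters are present.

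Nearly all peaks of these genes were more accessible in Sin3B-/- LT-HSCs, and in most genes every peak was. The level of a peak is its normalized read number, as scaled by the authors, and its change is the log2 ratio of the mean Sin3B-/- level to the mean Sin3B+/+ level. Among the 560 member peaks 541 were higher and 19 were lower in Sin3B-/-, against 95.7% higher and 4.29% lower over the table. In each of the 560, both libraries of one genotype lay above both libraries of the other, which held for the same 95.7% and 4.29% of all peaks. All 560 had an adjusted p under 0.05 in limma, as had all 5332 peaks, with 1 common standard error of 0.215 (log2), so the call separates no member from the rest, and an exact permutation test over 2 libraries against 2 cannot go below p = 0.33. The median log2 change was 0.84 in member peaks and 0.76 in all peaks. It was 0.73 for peaks of genes with 1 peak.

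Just outside the threshold lay 561 genes with 2 peaks, whose median log2 change was 0.79, and just inside lay the 120 genes with 3 peaks, whose median was 0.81. Both peaks were higher in 541 of the 2-peak genes, both were lower in 8, and 12 (2.14%) had 1 of each, against 8 of the 120 3-peak genes (6.67%) with both directions. A larger number of peaks by itself gives a gene more chances to hold both directions. The level of member peaks was at least doubled in 178 of 560 (31.8%), compared with 22.8% of the table. Every peak was at least doubled in 9 genes, and no peak was in 62.

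The direction rests on the scaling between libraries. Summed over the member peaks, the normalized reads of the Sin3B+/+ replicates came to 158472 and 129817, and those of the Sin3B-/- replicates to 236075 and 255864. Within a library all values were multiples of 1 smallest step, and in such steps the Sin3B+/+ libraries held 694546 and 378737 while the Sin3B-/- libraries held 377839 and 255864. In steps, the Sin3B-/- sums were thus not the higher ones. Whether a step is 1 read was not established and total library depth is unknown here, so the step sums give no direction. When each library was instead centred on its median over the table, which shifts every log2 change by 0.75, the 19 lower peaks stayed lower and 358 of 560 (63.9%) stayed higher, against 50.8% of all peaks, and the other 183 turned lower. The table holds mostly higher peaks, so this centre lies among them. Staying higher thus means only a change above about 0.75, and is no separate check of a gain. In the difference between peaks of 1 gene, a scaling factor common to the libraries of a genotype cancels. A factor that differs between replicates changes their weight in the mean and cancels only in ratios of single libraries. A scaling that varies with level would not cancel. In pooled cells, a higher level in every cell and accessibility in more of the cells cannot be told apart.

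By direction, 153 of the 165 genes had all peaks higher, 1 had all peaks lower and 11 (6.67%) had peaks in both directions. After centring, 43 genes had all peaks higher, 14 all lower and 108 both. Among the genes with the most peaks, the direction was shared in all but Gse1 and Akap13. Gm20388 had 10 peaks, but it is an annotated read-through gene of 4435 kb on chromosome 8 that contains 4 other genes with 3 or more peaks (Gse1, Zfpm1, Ankrd11 and Def8). Only 1 of its 10 peaks had its annotated start as the nearest, and others lay near starts such as those of Mvd, Cbfa2t3 and Rab4a. Its peaks, 4062 kb from first to last, thus lay among many genes. All 10 were higher, by log2 changes of 0.59 to 1.61.

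Tex2, which encodes a lipid-transfer protein of membrane contact sites, had 6 peaks, all higher. Its peak 6, 1.49 kb before an annotated start, had 28.1 and 22.3 normalized reads in Sin3B+/+ and 66.2 and 71.0 in Sin3B-/-, a log2 change of 1.45. Its peak 4, in an intron 14.3 kb past an annotated start, had 371 and 324 in Sin3B+/+ and 505 and 655 in Sin3B-/-, a log2 change of 0.74. The site of lowest level thus had the larger relative change. The genotypes did not overlap at either, as at every peak of the table.

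Slc38a1, a glutamine transporter, had 5 peaks within 17.2 kb around its start, with log2 changes of 0.79 to 1.34. The smallest was that of the peak over an exon, 0.48 kb past an annotated start, with 81.7 and 58.3 normalized reads in Sin3B+/+ and 127 and 115 in Sin3B-/-. The largest was that of an intronic peak 1.16 kb past that start, with 89.4 and 57.2 against 199 and 173. Pde4d, a phosphodiesterase that degrades cyclic AMP, had 5 intronic peaks spread over 885 kb, and their changes were close to each other, from 0.77 to 0.95. Nfix, a nuclear factor I protein that acts in blood stem and progenitor cells, had 5 peaks within 37.8 kb with changes of 0.57 to 0.83. None of the 5 had the Nfix start as its nearest, and 3 were nearest to Lyl1. Only 1 of the 5 Nfix peaks stayed higher after centring, against 5 of 5 in Slc38a1 and Pde4d and 5 of 6 in Tex2.

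Sept9, a septin of the cytoskeleton, Cmip, an adaptor protein, and Ctif, a translation initiation factor of the cap-binding complex, had 5 peaks each, all higher, with changes of 0.56 to 1.19, 0.61 to 1.25 and 0.84 to 1.48. The promoter peak of Sept9 was at once its highest in level and its smallest in change, at 629 and 556 in Sin3B+/+ and 830 and 921 in Sin3B-/-. In the plot of all genes with 4 or more peaks, the points of a gene lie mostly between 0.5 and 1.5.

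**Figure D1:**
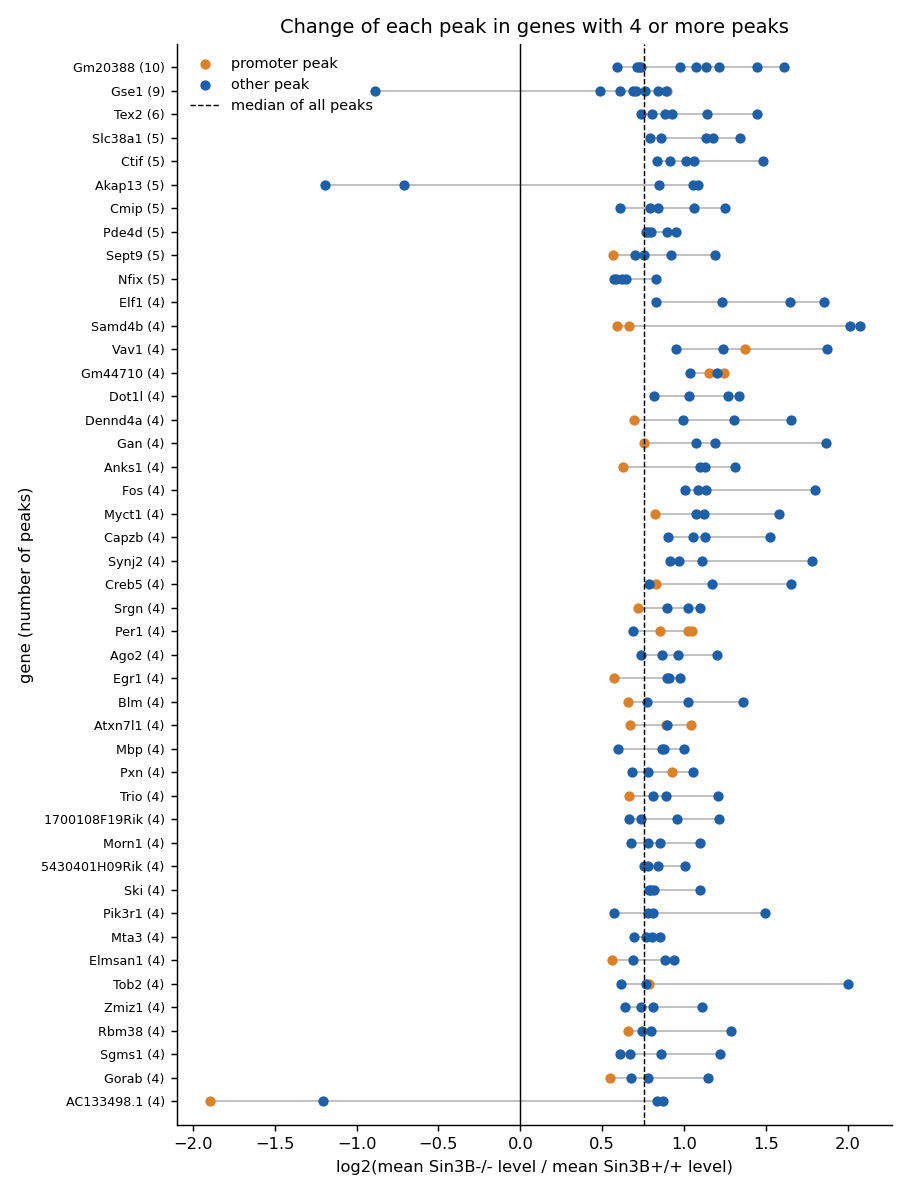
Log2 change (x axis) of each peak of the 45 genes with 4 or more peaks (y axis, number of peaks in brackets); each point is a peak, orange for promoter peaks and blue for others, and the dashed line is the median of all 5332 peaks, 0.76. In 42 of the 45 genes every point lies right of 0, and Gse1, Akap13 and AC133498.1 have points on both sides.

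The 11 genes with both directions held 42 peaks, 26 higher and 16 lower. By size of the difference between their extreme peaks they were Anks1b, Sdk2, AC133498.1, Akap13, Osbpl1a, Nrxn3, Gse1, Gm41335, Cfap43, Ing1 and AC132455.2. In 5 of them 2 peaks were lower, and in 6 only 1 was. They were long, with a median gene length of 290.7 kb against 54 kb in the genes with all peaks higher, and their peaks lay farther apart, over a median of 144.5 kb against 28.2 kb. Lower member peaks, those of Tacr1 included, were mostly low in level. Of the 19 lower member peaks, 14 (73.7%) had a mean level under 100, against 125 of the 541 higher ones (23.1%), and the part of level in the direction was not tested.

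Anks1b, a scaffold protein of neuronal synapses, had the widest difference, 3.69 on the log2 scale. Its intronic peak 2 had 96.7 and 142 normalized reads in Sin3B+/+ and 25.6 and 14.0 in Sin3B-/-, a log2 change of -2.59. Its promoter peak, 65 bp before an annotated start, had 66.4 and 73.4 against 29.99 and 24.0, a change of -1.37. Its first peak, 221 kb from the second, had 35.8 and 56.2 against 92.5 and 104, a change of 1.09. All 3 separated the genotypes without overlap, as every peak of the table did, the first upwards and the others downwards.

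Sdk2 and Nrxn3 encode adhesion molecules of synapses, and both had 1 higher and 2 lower peaks. In Sdk2 the lowest peak had 90.8 and 81.9 in Sin3B+/+ and 22.5 and 23.0 in Sin3B-/-, a log2 change of -1.93. A further intronic peak 13.4 kb away had 75.8 and 73.0 against 28.7 and 44.0, while the higher one had 67.1 and 59.3 against 101 and 131. In Nrxn3 the promoter peak, 139 bp before an annotated start, had 188 and 185 in Sin3B+/+ and 126 and 73.0 in Sin3B-/-. The other lower Nrxn3 peak had 67.3 and 73.7 against 26.2 and 36.0, and the higher one 88.3 and 75.8 against 160 and 121. AC133498.1, an unnamed gene on chromosome 13, had 2 neighbouring peaks 0.714 kb apart that were both higher (0.83 and 0.87) and 2 farther along that were both lower (-1.21 and -1.90).

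Akap13, an anchoring protein of protein kinase A, had 3 higher peaks between 2 lower ones. The first peak had 234 and 251 normalized reads in Sin3B+/+ and 139 and 157 in Sin3B-/-, a log2 change of -0.71. The last, just past the gene end, had 56.4 and 59.6 against 20.6 and 30, a change of -1.20. The 3 between them, 56.6 to 103.9 kb past the first, were higher by 0.85, 1.08 and 1.05. None of the 5 had the Akap13 start as its nearest.

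Gse1, a protein found with the CoREST histone demethylase and deacetylase complex, had 9 peaks over 270 kb, of which 8 were higher, by 0.48 to 0.90. Peak 4 was the exception, at 302 and 264 normalized reads in Sin3B+/+ and 144 and 162 in Sin3B-/-, a log2 change of -0.89. Peak 3, only 10.9 kb away, had 445 and 406 against 753 and 822, a change of 0.89.

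In the remaining genes a single peak departed. Ing1, a reader of histone H3 methylation that is a known partner of Sin3 deacetylase complexes, had 2 promoter peaks of high level that were higher, with 2247 and 1757 in Sin3B+/+ and 2957 and 2978 in Sin3B-/- at the first. Its peak 3, 27.5 kb from the nearest Ing1 start, had 116 and 110 against 60.6 and 68.0, a log2 change of -0.81. After centring all 3 Ing1 peaks were lower. Cfap43, a protein of cilia and flagella, had its own promoter peak higher by 0.95, a peak at the Itprip promoter higher by 0.66 and an intronic peak between them lower (-0.60). In Osbpl1a, an oxysterol-binding protein, the lower peak (-1.27) and a higher one (0.64) lay 12.7 kb apart. In Gm41335 and AC132455.2 the lower peak lay between 2 higher ones within 17.2 kb and 5.46 kb, and after centring all 3 peaks of AC132455.2 were lower.

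**Figure D2:**
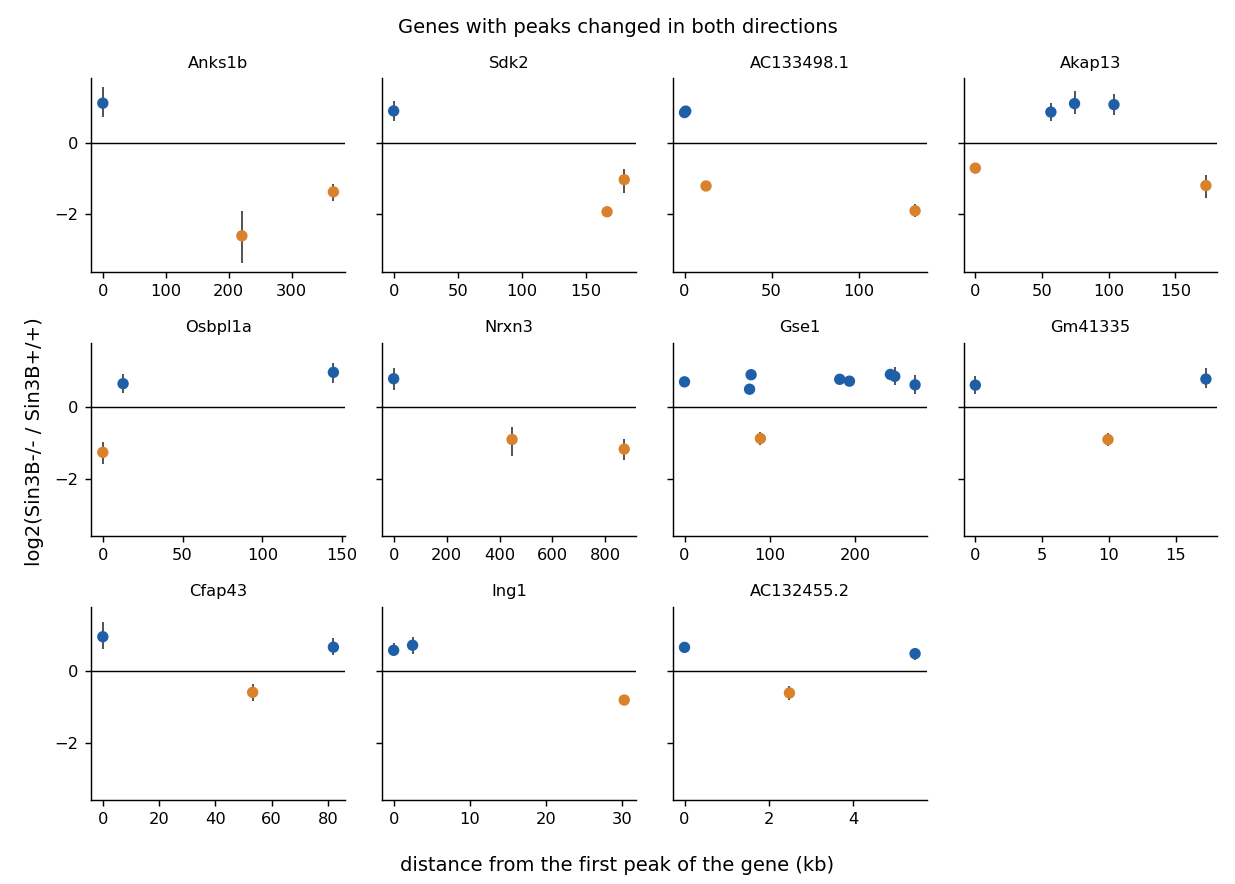
Log2 change (y axis) of each peak against its distance in kb from the first peak of the gene (x axis) in the 11 genes with both directions; blue points are higher and orange points lower in Sin3B-/-, and bars span the 4 ratios of a Sin3B-/- to a Sin3B+/+ library. No bar crosses 0, which holds for every peak of the table. In Akap13, Gse1, Gm41335, Cfap43 and AC132455.2 the 2 directions alternate along the gene.

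Tacr1, the receptor of substance P, was the 1 gene with all peaks lower. Its promoter peak, 108 bp before an annotated start, had 88.8 and 104 normalized reads in Sin3B+/+ and 57.5 and 33.0 in Sin3B-/-, a log2 change of -1.09. An intronic peak 7.50 kb past that start had 112 and 120 against 48.7 and 36.0, a change of -1.46, and one 60.6 kb past it had 60.5 and 93.6 against 19.99 and 34.0, a change of -1.51. The 3 changes lay within 0.42 of each other, and at each the genotypes did not overlap, as at every peak of the table. Among the 2-peak genes 8 had both peaks lower.

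**Figure D3:**
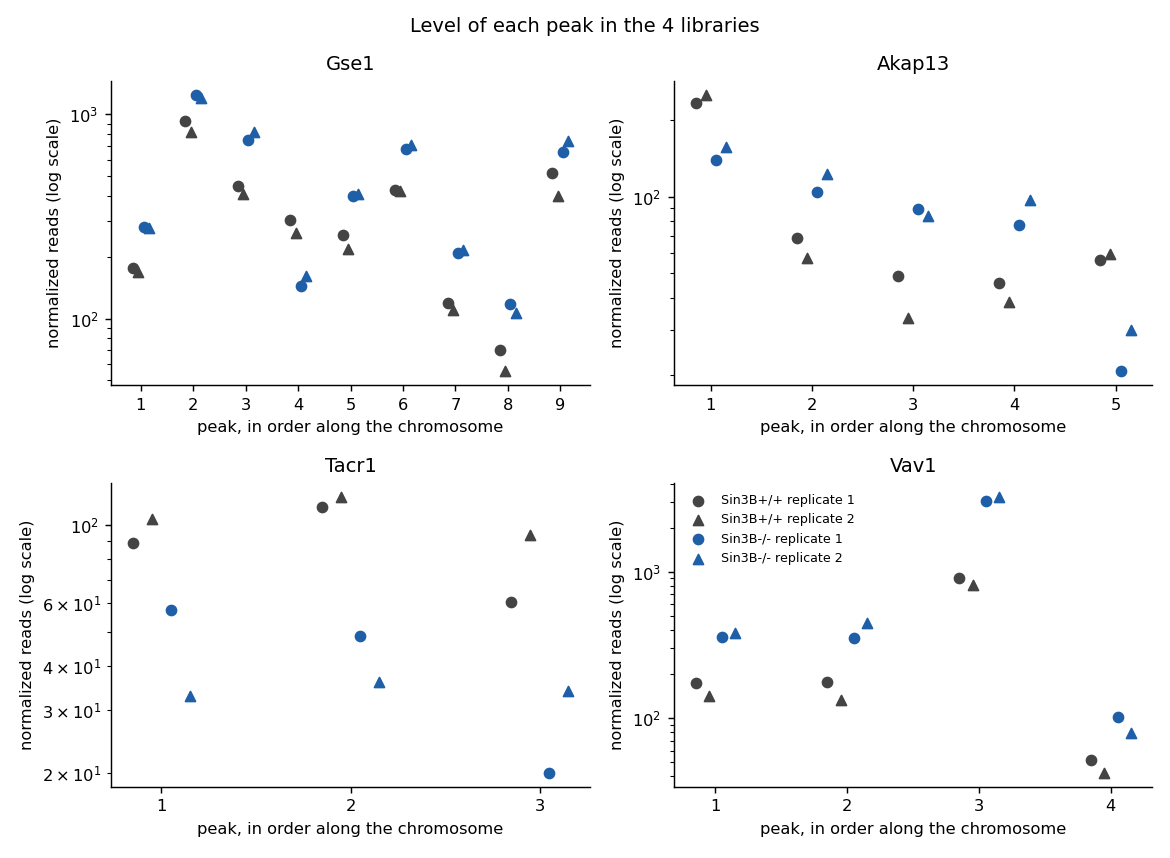
Normalized reads (y axis, log scale) in each of the 4 libraries at every peak of Gse1, Akap13, Tacr1 and Vav1, in order along the chromosome (x axis); grey symbols are Sin3B+/+, blue are Sin3B-/-, circles replicate 1 and triangles replicate 2. Blue symbols lie below grey ones at Gse1 peak 4, at Akap13 peaks 1 and 5 and at every Tacr1 peak, and above them elsewhere.

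In size, peaks of a gene changed to unequal degrees. The difference between the highest and the lowest log2 change of a gene had a median of 0.47 over the 165 genes and ran from 0.04 in Ell, an elongation factor of RNA polymerase II, to 3.69 in Anks1b. It was 0.44 in genes with 1 direction and 1.96 in genes with both. It was 0.42 in genes with 3 peaks, 0.60 in those with 4 and 0.64 in those with 5 or more, and a larger number of peaks by itself widens such a range. It was under 0.5 in 89 genes and at least 1 in 23, of which 12 had 1 direction. The limma standard error of a difference between 2 peaks was 0.304, and 47 of the 153 genes with all peaks higher had a range below it. This standard error takes the 2 peaks as independent, though they share the same libraries. A range over 3 or more peaks is also not a difference of 2 peaks fixed beforehand, so this is only a rough scale. A library ratio is that of a Sin3B-/- to a Sin3B+/+ library. In 70 of these 153 genes every library ratio of the most changed peak exceeded every one of the least changed peak. In the other 83 the ratios overlapped. The most changed peak was the same one in both pairs of same-numbered libraries in 79 of the 153.

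The pooled standard deviation of log2 changes within a gene was 0.297 in genes with 1 direction, against 0.369 over all peaks of those genes. Over all 165 genes it was 0.412, against 0.510 over the 560 peaks. Lower peaks widen these spreads, and the 0.369 included the lower peaks of Tacr1. Over the 541 higher member peaks alone the standard deviation was 0.321. Peaks of a gene were thus at most somewhat closer to each other than to peaks of other genes with 3 or more. Neighbours in the genome had similar differences whether or not they belonged to 1 gene. Over gaps of up to 200 kb, consecutive peaks of a gene differed by a median of 0.225 (376 pairs) and consecutive peaks of different genes by 0.228 (2257 pairs). Under 2 kb the medians were 0.174 (93 pairs) and 0.166 (44 pairs), and from 50 to 200 kb they were 0.238 (46 pairs) and 0.235 (1274 pairs). The share of pairs that changed in the same direction was 96.3% within genes and 98.0% between genes. From 50 to 200 kb it was 89.1% and 96.9%, and over all gaps 95.8% and 92.2%. Up to 200 kb, in 54.0% and 56.4% of pairs the same peak had the larger log2 change in every combination of libraries. This rule is looser than that used above for the most and least changed peaks of a gene, so the shares are not comparable. Neighbouring pairs share peaks, so these values are given with no test.

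**Figure D4:**
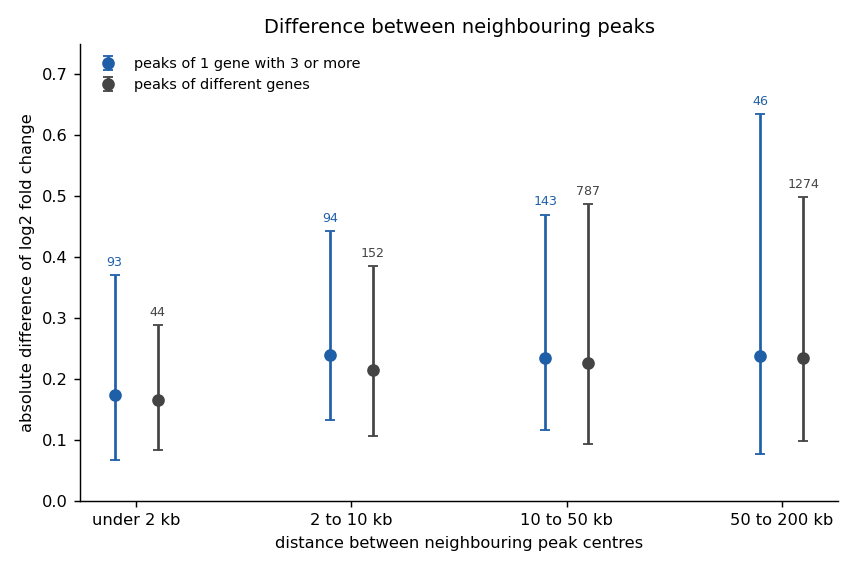
Absolute difference of log2 change (y axis) between consecutive peaks, by the distance of their centres (x axis); points are medians, bars run from the first to the third quartile, and numbers give the pairs, blue for peaks of 1 gene with 3 or more and grey for peaks of different genes. The medians lie farthest apart from 2 to 10 kb, at 0.239 within genes and 0.215 between genes.

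Closest in size were the peaks of Ell, 2610035D17Rik, 5033406O09Rik, Msn and Gm27952. In Ell the 3 peaks, 22.02 kb from first to last, changed by 0.71, 0.68 and 0.67. Its first peak had 169 and 125 in Sin3B+/+ and 280 and 202 in Sin3B-/-, and its last had 237 and 164 against 312 and 327. Msn (moesin), which links the cell membrane to actin, had a promoter peak and 2 intronic peaks that changed by 0.78, 0.69 and 0.77. These differences within Ell and Msn were smaller than the standard error of a difference between 2 peaks. When 1 library was left out, the range within Ell reached 0.297 and that within Msn 0.258, so the order of these genes rests on single libraries.

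The highest median changes were those of Pbxip1, Tmtc1, Elf1, Hectd4 and Tm9sf4. The first peak of Pbxip1, 0.75 kb past its start, had 24.0 and 18.9 normalized reads in Sin3B+/+ and 88.7 and 84.0 in Sin3B-/-, a log2 change of 2.01. Its exonic peaks changed by 1.75 and 1.19. Elf1, an ETS transcription factor, had 4 intronic peaks within 12.4 kb that changed by 0.83, 1.23, 1.86 and 1.65 in order along the gene. The first Elf1 peak had 367 and 283 against 494 and 660, and the third had 32.6 and 22.6 against 113 and 87.0. Tmtc1, a mannosyltransferase, Hectd4, a ubiquitin ligase, and Tm9sf4, a membrane protein of the secretory pathway, had medians of 1.53, 1.44 and 1.41.

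Centres of consecutive peaks of a gene lay a median of 11025 bp apart (395 gaps), from 331 bp to 1244 kb. Of the gaps 93 were under 2 kb, 188 (47.6%) under 10 kb and 30 were 100 kb or more. From first to last peak the median distance was 30.5 kb, under 10 kb in 31 genes and over 100 kb in 32. The most compact were Tpd52l2 (1.40 kb), the zinc finger HIT protein gene Znhit3 (1.62 kb) and the ubiquitin ligase gene Neurl3 (1.74 kb), and the most extended after Gm20388 were Pde4d (885 kb) and Nrxn3 (871 kb). At Neurl3 2 intronic peaks and the promoter peak changed by 1.03, 1.09 and 1.24. At Tpd52l2 they changed by 0.65, 0.92 and 1.24 within 1.40 kb. When peaks less than 1000 bp apart were merged, 115 of the 165 genes still had 3 or more.

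Genes with 3 or more peaks were longer than the others, with a median of 57.9 kb against 21.3 kb in genes with 1 or 2, and the part of gene length in the number of peaks was not tested. All peaks lay inside the gene in 69 genes and all lay outside in 11. Of the 560 peaks, 350 (62.5%) had the start of their own gene as the nearest one. Counted by the nearest start instead, 127 genes had 3 or more peaks, and 81 of the 165 were among them. For 25 of the 165, including Akap13, Nfix, Irf2 and Arhgap39, no peak was nearest to their own start. The share of genes with 3 or more peaks, 3.77% over the table, ran from 0.83% on chromosome 16 to 7.76% on chromosome 17. Another such gene lay within 100 kb of 17 of them.

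The peaks were mostly intronic, and promoter here means a peak centre from 1000 bp upstream to 100 bp downstream of any annotated start. Introns held 317 of 560 (56.6%) against 38.1% of all peaks, promoters 101 (18%, 95% Wilson interval 15.1 to 21.4%) against 33.3%, exons 4.82% against 7.35% and intergenic sequence 20.5% against 21.2%. With a promoter of 2000 bp on each side of a start the shares were 30.9% and 47.1%. The intervals cover counting error only, and a gene with several peaks cannot have all of them at 1 start. In 79 genes no peak was at a promoter, in 73 there was 1 and in 13 there were 2 or more, and in 38 every peak was intronic. Member peaks were a little lower and narrower than the table, with a median level of 196 against 263 and a width of 576 against 685 bp. They held 1.84 CpG per 100 bp against 2.14, and their GC content was 52.7% against 53.3%.

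Within a gene, promoter peaks were the higher in level and the smaller in change. In 79 genes with all peaks higher and with both promoter and other peaks, the mean change at promoters was the smaller in 63, with a median of 0.69 against 0.90 and a median difference of -0.22. The promoter level was the higher in 63 of the 79 (median log2 level 9.03 against 7.58). Over the table too, higher promoter peaks changed by 0.66 and other higher peaks by 0.85. In 97 of the 153 genes with all peaks higher the peak of highest level had the smallest change, and in 99 the peak of lowest level had the largest. Only called peaks entered the table, and a small change at a low level is less readily called. The part of level and of this selection in the difference was not tested.

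**Figure D5:**
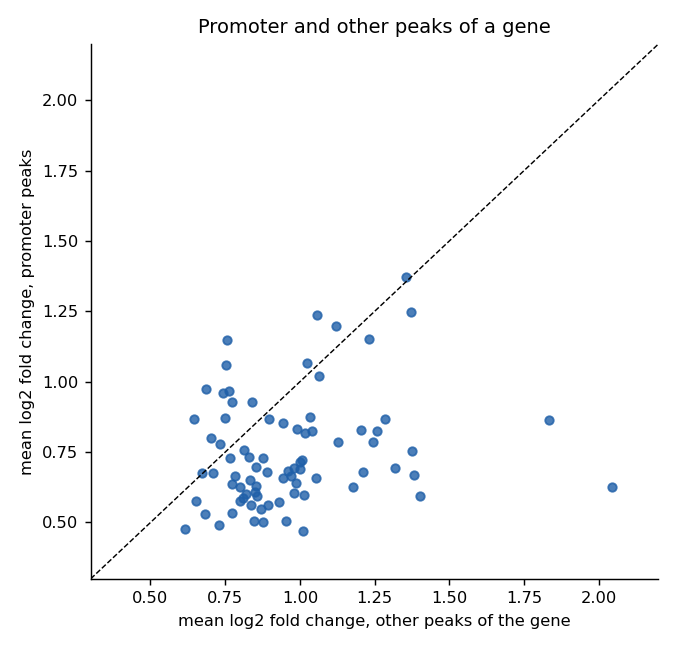
Mean log2 change of the promoter peaks of a gene (y axis) against that of its other peaks (x axis) in 79 genes with all peaks higher; each point is a gene and the dashed line marks equal change. Of the points, 63 lie below the line.

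The genes were also read against 11 lists of genes by function, which together held 49 of the 165. The share with 3 or more peaks was 3.77% over the 4376 genes, and each list is given beside that share and with no test. Over all 560 member peaks 541 were higher, and 358 stayed higher after centring.

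Of 47 hematopoietic transcription factor genes in the table, 10 (21.3%) had 3 or more peaks. These were Nfix, Fos, Elf1, Egr1, Erg, Irf2, Nr4a1, Spi1, Zfpm1 and Junb, and their 35 peaks were all higher, with a median log2 change of 0.91. After centring 25 of the 35 stayed higher. Fos, a subunit of the AP-1 factor, had 4 intergenic peaks and none at its promoter. The peak 5.02 kb before its start had 145 and 98.0 normalized reads in Sin3B+/+ and 408 and 439 in Sin3B-/-, a log2 change of 1.80, while the other three changed by 1.01 to 1.13. This site was picked as the most changed of the gene. Its library ratios all lay above those of the least changed Fos peak, and the comparison was not made with the peaks between them.

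Irf2, a regulator of the interferon response, had 3 intergenic peaks, all nearest to another annotated start. The first had 43.8 and 29.1 in Sin3B+/+ and 167 and 180 in Sin3B-/-, a log2 change of 2.25, and the others changed by 0.81 and 1.16. Erg, an ETS factor required by hematopoietic stem cells, had 2 intronic peaks that changed by 0.77 and 0.69 and a distal one, 54.3 kb before its start and shown above, that had 72.6 and 57.9 against 128 and 153, a change of 1.11. Spi1 (PU.1), an ETS factor of myeloid and lymphoid cells, had a pair of intronic peaks 0.464 kb apart that changed by 0.87 and 1.004, and an exonic peak 0.82 kb past an annotated start that changed by 0.59. The immediate early genes Egr1 and Junb had their smallest change at the promoter, 0.57 and 0.61. Nr4a1, a nuclear receptor, had a larger change at both of its promoters (1.28 and 1.01) than at its upstream peak (0.76), and Zfpm1, a cofactor of GATA1, changed by 0.65, 1.08 and 1.24.

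Of 40 chromatin regulator genes 6 (15%) had 3 or more peaks, with 20 peaks higher and 1 lower, and 12 of 21 stayed higher after centring. Dot1l, a histone H3 methyltransferase, had 4 peaks with changes of 0.82 to 1.34, and its largest was at an intronic site with 71.2 and 53.5 in Sin3B+/+ and 154 and 161 in Sin3B-/-. The DNA methyltransferase gene Dnmt3a had 3 intronic peaks of high level that changed by 0.57 to 0.71. The DNA demethylase gene Tet3 had 3 intronic peaks that changed by 0.99 to 1.15. Mta3, of the NuRD deacetylase complex, changed by 0.69 to 0.85 and Zmiz1, a transcriptional coactivator, by 0.64 to 1.11. Ing1, described above, held the 1 lower peak of the list.

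Among signalling genes, 7 of 38 (18.4%) on the PI3K, mTOR and MAP kinase list had 3 or more peaks, namely Pik3r1, Prkce, Prkca, Pik3ap1, Dusp4, Tsc2 and Dusp1. All 22 peaks were higher, and 13 stayed so after centring. Pik3r1, the regulatory subunit of PI3-kinase, had 2 peaks past its end only 4.92 kb apart, of which one had 413 and 348 in Sin3B+/+ and 534 and 599 in Sin3B-/-, a change of 0.58, and the other 102 and 68.6 against 248 and 233, a change of 1.49. The 2 neighbours differed in every combination of libraries. The protein kinase C genes Prkce and Prkca changed by 0.64 to 0.82 and by 0.68 to 0.91. On the cytokine and interferon list 3 of 27 genes (11.1%) qualified, Ski, Stat3 and Irf2, with 10 peaks higher and 7 so after centring. Stat3, a factor activated by cytokines, changed by 0.58 to 0.69 and Ski, a repressor of TGF-beta signalling, by 0.78 to 1.10.

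On the list of small GTPase regulators 3 of 87 genes (3.45%) qualified, with 10 peaks higher and 8 so after centring. Vav1, an activator of Rac in blood cells, had 4. The intronic peak 11.5 kb past an annotated start of Vav1, shown above, had 901 and 817 in Sin3B+/+ and 3039 and 3265 in Sin3B-/-, a log2 change of 1.88. Its promoter peak had 176 and 133 against 352 and 448, a change of 1.37, and the peak 2.18 kb before its start had 172 and 141 against 356 and 383, a change of 1.24. The fourth, past the gene end and nearest to Adgre1, changed by 0.95. The iCre transgene is driven by Vav1 regulatory sequence, and at Vav1 reads from the transgene and from the endogenous gene cannot be told apart. Arhgap39 had the largest gain of all member peaks, 2.52, at an intronic site of low level with 10.7 and 8.91 in Sin3B+/+ and 64.4 and 48.0 in Sin3B-/-, while Arap1 changed by 0.64 to 0.87.

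On the adhesion, homing and cytoskeleton list 6 of 50 genes (12.0%) qualified, Sept9, Pxn, Msn, Myh9, Fnbp1 and Ezr, with 21 peaks higher and 13 so after centring. Pxn (paxillin), a protein of focal adhesions, changed by 0.68 to 1.06, and Ezr (ezrin), a relative of moesin, by 1.09 to 1.66 at 3 intronic peaks within 2.94 kb. On the solute carrier list 6 of 56 (10.7%) qualified, with 20 peaks higher and 18 so after centring. Slc3a2, the CD98 heavy chain of amino acid transporters, changed by 0.87 at its promoter and by 1.65 at a peak past its end, and the sodium-calcium exchanger Slc8a1 changed by 0.80 to 1.25.

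On the RNA binding and splicing list 5 of 67 genes (7.46%) qualified, with 17 peaks higher and 11 so after centring. Among them were the microRNA effector Ago2 (0.74 to 1.20), Rbm38 (0.66 to 1.29) and Hnrnpul1, whose promoter peak changed by 0.67 and whose 2 others changed by 1.31 and 1.45. On the ubiquitin list 3 of 78 (3.85%) qualified, Hectd4, Klhl3 and Rnf125, with 9 peaks higher and 6 so after centring. The zinc finger list had 1 of 94 (1.06%), Zfpm1, with 3 peaks higher and 2 so after centring. The cell cycle and p53 list had 1 of 24 (4.17%), Ccnd3, which encodes cyclin D3. Its promoter peak had 1029 and 958 in Sin3B+/+ and 1276 and 1493 in Sin3B-/-, a change of 0.48, and its intronic peaks changed by 0.52 and 0.72. None of the 3 Ccnd3 peaks stayed higher after centring, since all 3 changes were smaller than the shift of centring.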

How the data were processed

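ATAC-Seq was measured in 4 libraries, 2 per genotype, each from LT-HSCs of 2 mice and amplified for 12 PCR cycles. The authors trimmed and aligned the reads with bowtie2, removed duplicates, called peaks with MACS2, and normalized and tested the peaks with DiffBind and DESeq2. The values used here are a signal, the deposited normalized reads per peak of each library. The log2 level and fold, p-value and FDR columns deposited by the authors hold their own comparison and were not used. Total library depth is unknown here. The values were whole multiples of 1 step per library in 100% of peaks (tolerance 0.006). The lowest level that 3 steps give was at most 3.0, and no member peak was below it.

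The submitters' processing notes name mm9, but 5330 of 5332 gene identifiers were in GENCODE M21 and 96.6% of peaks had its gene coordinates, so GRCm38 sequence and GENCODE M21 starts were used. Members, lists and named genes were chosen with earlier results of these data known. The named genes were those with the most peaks, both directions, extreme ranges, spans or medians, and the 3 with the most peaks per list. Tacr1, AC132455.2 and further genes of the lists were named after their values were seen.

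Changes are log2 ratios of genotype means. limma was fitted to log2(level + 1) over all 5332 peaks with Benjamini-Hochberg adjustment, and its script was tested on simulated data. P-values measure only the spread between pools. Alternatives were merging, nearest starts, gene symbols, pseudocounts of 0.5 and 5, a minimum level of 20, centring, a promoter of 2000 bp on each side, a replicate block and leaving out each library. Python 3.11.15, numpy 2.4.6, pandas 2.3.3, scipy 1.17.1, pysam 0.24.0, matplotlib 3.10.9, R 4.3.3 and limma 3.58.1 were used.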

Additional observations from a re-analysis of the deposited data

How the results depend on the processing

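With libraries centred on their medians, 57 genes had all peaks in 1 direction in place of 154, and limma called 76 member peaks in place of 560 (57 higher and 19 lower), because the table holds mostly higher peaks and centring sets their median to 0. Leaving out each library in turn could not change a direction, because the genotypes overlapped at no peak. The count of genes with 1 direction therefore stayed at 154, which is no check of it. The median within-gene range then lay between 0.462 and 0.508. In leave-one-out limma fits the lone library is assumed to vary like the other genotype, so their calls are not counted here. The median range was 0.416 with log2(level + 5), which narrows the changes of low peaks, and 0.466 without Gm20388. With a promoter of 2000 bp on each side of a start, 30.9% of member peaks were at promoters, against 47.1% of all peaks. With the replicate number as a replicate block limma called 557 member peaks, and same-numbered libraries, whose deviations had a correlation of -0.101 over peaks, share only a number. With the crossed pairing, chosen after seeing the data, it called 560. The limma counts of this paragraph stand without the share called over all peaks, so they show nothing particular to these genes. Merging near peaks gave a median gap of 15867 bp in place of 11025 bp. Counts per gene symbol were those per identifier, 165. The within-gene range of the 54 named genes moved by less than its spread over library pairs in 54 genes with log2(level + 1), in 48 with log2(level + 5) and in 38 to 49 when 1 library was left out. A stricter FDR was not run because it rests on the authors' comparison, and edgeR, planned for recovered whole reads, was not run.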
